A study of Helianthus annuus with 24 samples.

Results

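Peroxidases, superoxide dismutases, catalases, NADPH oxidases, germin-like proteins and other cupins were followed through the floral nectaries of sunflower (Helianthus annuus). A contig, that is an assembled transcript, was taken when the Arabidopsis description in the deposited table contained "peroxidase", "superoxide dismutase", "catalase", "germin", "cupin" or "respiratory burst oxidase". The search gave 69 of 42063 contigs, matched to 49 Arabidopsis genes. By family these were 25 class III and other peroxidases, 10 superoxide dismutases, 9 ascorbate peroxidases, 9 glutathione peroxidases, 6 cupins other than germins, 3 NADPH oxidases, 2 catalases, 2 peroxiredoxins and 1 germin-like protein. The last 2 contigs, Helianthus26436 and Helianthus41157, matched the word germination in "no pollen germination related 2" and are no redox genes. Of the 25 peroxidases, 20 were heme peroxidases of the peroxidase superfamily, 4 were related to vanadium haloperoxidases, and 1, Helianthus13816, matched a homeobox regulator named for the cationic peroxidase it controls in Arabidopsis.

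Nectar of several plants carries hydrogen peroxide and the proteins that make or remove it. In ornamental tobacco a germin-like protein, nectarin 1, is a superoxide dismutase of the nectar itself, and an NADPH oxidase of the nectary supplies its superoxide. Superoxide dismutases turn superoxide into hydrogen peroxide; catalases and the ascorbate, glutathione and thioredoxin-dependent peroxidases remove the peroxide inside cells, and class III peroxidases use it in the wall and outside the cell, for example to couple lignin precursors. The deposited table gives neither sequences nor lengths of the contigs, so values are compared between libraries and not between contigs.

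The groups were nectaries of lines 434 and 467 (high nectar production), 452 and 456 (medium), 412 and 441 (low) and of the maintainer line ER, which has no nectar class, and leaf, with 3 libraries each. The 6 classed lines came from crosses between species, and all were raised under 16 h days at 23 °C. Each nectary library held about 50 nectaries, collected 4 to 8 h into the day at a plant age near 40 days, and a replicate pooled nectaries of different plants. The sample labels give leaf to line 434 while the series text gives it to ER, so both were used as its partner.

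Values are upper-quartile normalized and rounded, and libraries held an estimated 8450000 to 16090000 reads. Summed contigs of 7 green-leaf genes reached 826885 to 1239445 in leaf and 587 to 8710 in nectaries, and those of the nectary genes SWEET9, CRC and MYB21 reached 29180 to 246763 in nectaries and 128 to 174 in leaf. A pair of nectary libraries stood apart. Replicate 3 of line 452 had 9.28% of contigs at 0, against 3.07% to 6.19% in the other nectary libraries. Replicate 2 of line 456 had the highest green-leaf sum (8710, against 587 to 3361 in the other nectary libraries) and a nectary-gene sum of 34460, against 100221 and 98684 in the other 456 libraries. Some results that rest on either are given with and without it.

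**Figure D1:**
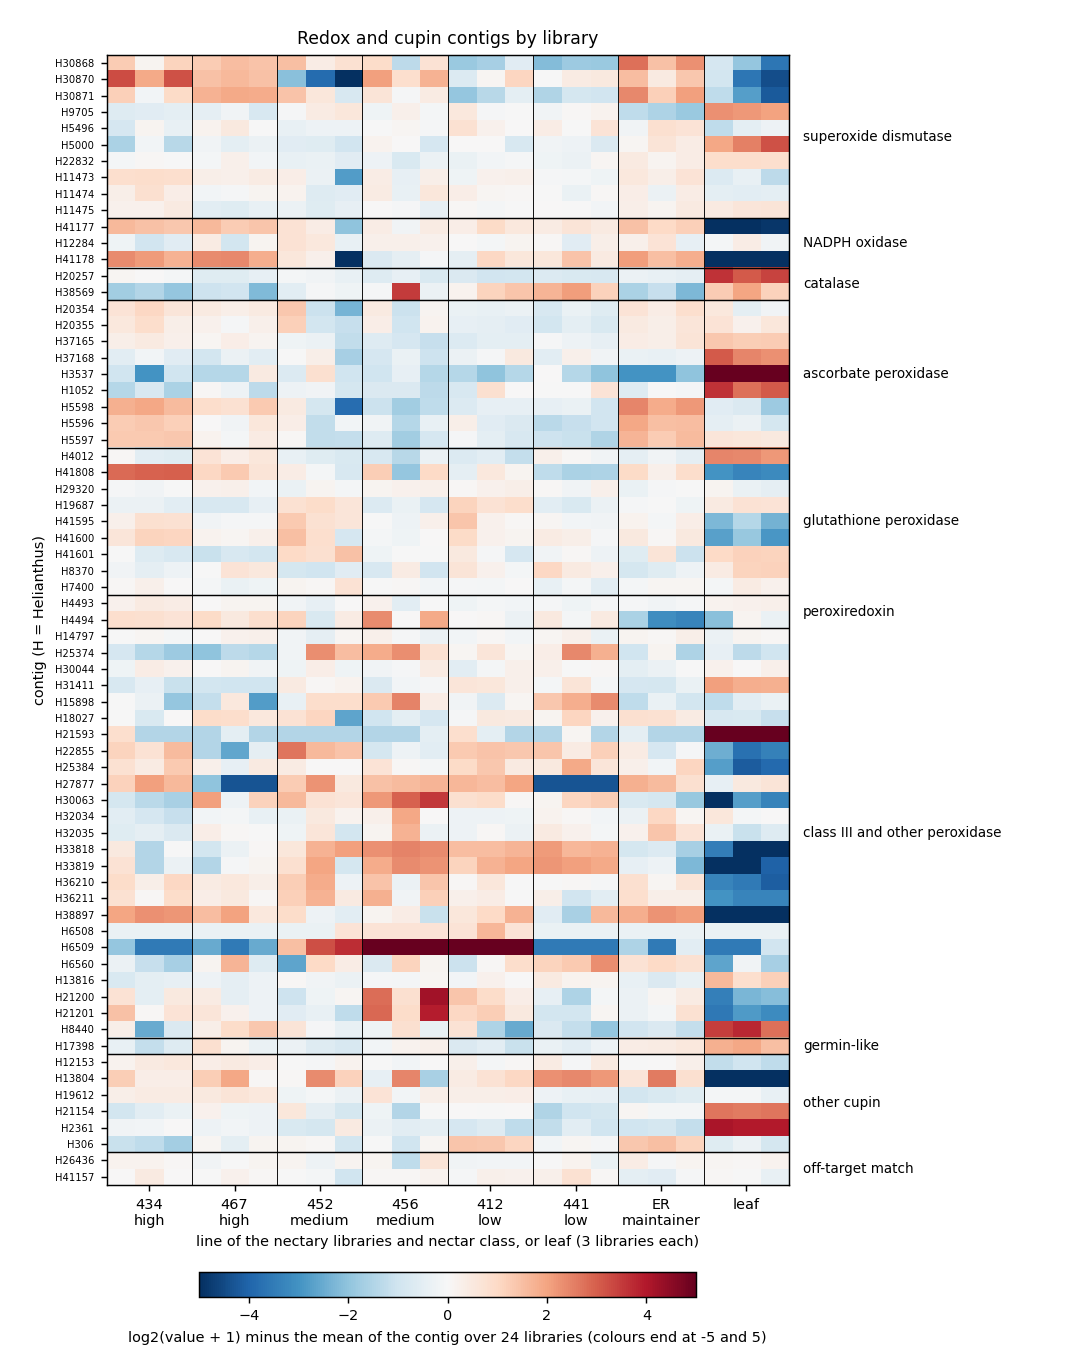
Heat map of all 69 contigs (vertical axis, grouped by family) in the 24 libraries (horizontal axis, 3 per line and leaf), coloured by log2(value + 1) minus the contig's mean over all libraries. Leaf is set off from every nectary line in many contigs of both signs, for example red for catalase Helianthus20257 and blue for peroxidase Helianthus38897.

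Line 434 nectaries differed from leaf in most of the tested contigs, in both directions. Among the 68 members that could be tested, 28 rose and 22 fell in the nectary (limma, adjusted p under 0.05), 73.5% in all, while 39.6% of all 39981 contigs rose, 22% fell and 61.6% did either. The members' shares were 41.2% higher and 32.4% lower. The lower ones include Helianthus3537, Helianthus8440 and Helianthus21593, which reached the minimum mean of 10 only through leaf and so had to be lower in the nectary. The higher ones include contigs that averaged under 10 in leaf and reached it only through nectaries, such as Helianthus38897 and Helianthus41178. No reading is made of either share. The median log2 change of the members was 0.12, against 0.48 over all tested contigs. Rescaling the libraries by median ratios moved the median of all contigs to 0.01 and gave 23 members higher and 25 lower, beside 29% and 30.5% of all contigs, so rescaled changes are given beside the deposited ones. In the same fit 18 members were higher than leaf in all 7 nectary lines and 16 were lower in all 7, against 18.2% and 12.7% of all contigs, which as shares of the members are 26.5% and 23.5%; the count of lower ones holds the same 3 contigs. The count of higher ones likewise holds contigs that passed the minimum mean only through nectaries. All 7 of these comparisons use the same leaf libraries. Less RNA per cell and fewer cells of a type cannot be told apart in whole tissue.

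The NADPH oxidases, membrane enzymes that make superoxide outside the cell, held 1 contig that rose and 1 that did not pass. The remaining contig, Helianthus41178, was tested only because nectaries were high. Helianthus41177, whose closest UniRef protein is RBOHC, the oxidase of Arabidopsis root hair growth, had values of 2639, 2374 and 2219 in line 434 nectaries, against 18, 25 and 29 in leaf. All nectary libraries of all lines lay above leaf, the lowest at 215 and the highest at 2667. The log2 change was 6.61 ± 0.43 (SE; adjusted p = 6.4e-11; 6.16 after rescaling). Helianthus41178, matched to RBOHD, the oxidase of the Arabidopsis immune burst, was at 208, 177 and 134 in line 434 nectaries and is listed at 0 in all 3 leaf libraries. It passed the minimum mean only through nectaries, so no test is given. A further RBOHD match, Helianthus12284, had 266, 160 and 209 in line 434 nectaries, against 288, 406 and 272 in leaf, a change of -0.61 ± 0.34 that did not pass (adjusted p = 0.125) and that passed as lower after rescaling (-1.08, adjusted p = 0.00649).

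Superoxide dismutases went both ways, also among contigs of the same metal. Of 4 iron contigs, matched to enzymes that in Arabidopsis work largely in plastids, 3 rose. Helianthus30868, matched to FSD1, had 10134, 4598 and 9033 in line 434 nectaries, against 2343, 1085 and 341 in leaf. Helianthus30871, matched to FSD2, had 17630, 7004 and 14975 in line 434 nectaries, against 3234, 1142 and 422 in leaf. Helianthus30870, also matched to FSD2, had 1646, 639 and 1533 in line 434 nectaries, against 90, 13 and 7 in leaf. None of the 3 overlapped between line 434 nectaries and leaf, although leaf replicates spread over a factor larger than those of the nectary. Other lines did overlap leaf, as with 928 to 2798 for Helianthus30868 in the low lines. Of the 7 lines, Helianthus30868 was higher than leaf in 5, Helianthus30870 in 6 and Helianthus30871 in 7.

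Their log2 changes were 2.97 ± 0.59 for Helianthus30868 (adjusted p = 0.000237; 2.502 rescaled), 3.40 ± 0.59 for Helianthus30871 (adjusted p = 5.87e-05; 2.93 rescaled) and 5.76 ± 0.94 for Helianthus30870 (adjusted p = 2.67e-05; 5.31 rescaled). Leaf sets their size: without leaf replicate 3 the changes were 2.23, 2.67 and 5.04, and without leaf replicate 1 they were 3.62, 4.14 and 6.79. The 3 contigs fall in a single UniRef50 cluster, so reads of near-identical copies could be divided among them. The remaining iron contig and 2 copper/zinc contigs fell. Helianthus5000, matched to the chloroplast copper/zinc enzyme CSD2, had 128, 353 and 146 in line 434 nectaries, against 1468, 2227 and 3557 in leaf (log2 change -3.59 ± 0.36, adjusted p = 4.64e-08; -4.06 rescaled). Helianthus9705, matched to FSD3 of the chloroplast nucleoid, had 130, 137 and 146 in line 434 nectaries, against 839 to 999 in leaf (-2.74 ± 0.21, adjusted p = 9.13e-10; -3.21 rescaled). Neither overlapped between tissues in any line. Over the family 5 of 10 contigs rose, 3 fell and 2 did not pass.

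Both catalase contigs, matched to CAT2, the peroxisomal catalase of photorespiration in Arabidopsis leaves, were lower in the nectary. Helianthus20257 had 5965, 5686 and 5215 in line 434 nectaries, against 70017, 47220 and 58681 in leaf. All nectary libraries of all lines lay between 2936 and 5965. The log2 change was -3.37 ± 0.15 (adjusted p = 1.44e-13; -3.84 rescaled). Helianthus38569 had 840, 997 and 733 in line 434 nectaries, against 6766, 10804 and 6116 in leaf (-3.17 ± 0.65, adjusted p = 0.000316; -3.64 rescaled), but it was lower than leaf in only 4 of the 7 lines, a difference described with the classes.

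Ascorbate peroxidases, which spend ascorbate on hydrogen peroxide, divided 3 higher, 4 lower and 2 not passed. The lower count holds Helianthus3537, which was tested only because leaf was high, so no reading is made of it. Helianthus3537, matched to the thylakoid lumen protein TL29 (APX4), had 3, 0 and 3 in line 434 nectaries, against 6387, 4105 and 3047 in leaf, and stayed at 0 to 13 in every nectary library. It passed the minimum mean only through leaf, so no test is given. Helianthus1052, matched to APX6, had 10, 16 and 9 in line 434 nectaries, against 357, 201 and 249 in leaf (-4.41 ± 0.43, adjusted p = 2.88e-08; -4.87 rescaled). Helianthus37165, matched to the peroxisome-bound APX3, had 3050, 3404 and 2988 in line 434 nectaries, against 6459, 5890 and 6056 in leaf (-0.96 ± 0.20, adjusted p = 0.000375; -1.44 rescaled). Helianthus5598, matched to the stromal enzyme, was higher, with 435, 483 and 380 in line 434 nectaries, against 85, 77 and 35 in leaf (2.79 ± 0.63, adjusted p = 0.000814; 2.33 rescaled). The cytosolic APX1 match Helianthus20355 had 8205, 10391 and 6976 in line 434 nectaries, against 9066, 6643 and 8445 in leaf, values that overlapped and did not pass (0.08 ± 0.41, adjusted p = 0.89).

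Among the glutathione peroxidases, which in plants mostly reduce lipid peroxides with thioredoxin, 3 of 9 rose and 4 fell. The widest difference was in Helianthus41808, matched to GPX2, with 19773, 21519 and 22198 in line 434 nectaries, against 352, 285 and 307 in leaf. Every nectary library lay above every leaf library, from 718 upward. The log2 change was 6.07 ± 0.53 (adjusted p = 6.17e-09; 5.60 rescaled). Contigs matched to GPX6 went both ways: Helianthus41595 had 2157, 3165 and 3009 in line 434 nectaries, against 376, 667 and 346 in leaf (2.63 ± 0.29, adjusted p = 1.67e-07; 2.16 rescaled), whereas Helianthus41601 had 1290, 844 and 754 in line 434 nectaries, against 2615, 2897 and 2828 in leaf (-1.57 ± 0.34, adjusted p = 0.000492; -2.04 rescaled). The peroxiredoxin Helianthus4493 had 2763, 3196 and 3037 in line 434 nectaries, against 2685, 2761 and 2855 in leaf, and did not pass (0.11 ± 0.15, adjusted p = 0.517).

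Of 19 heme peroxidases of the secreted class tested, 11 rose, 3 fell and 5 did not pass, beside 39.6% of all contigs higher and 22% lower. Their median log2 change was 2.52. Of the 3 that fell, Helianthus8440 and Helianthus21593 passed the minimum mean only through leaf. Of the 11 that rose, Helianthus21201, Helianthus30063, Helianthus33818, Helianthus33819, Helianthus36210, Helianthus36211 and Helianthus38897 averaged under 10 in leaf and passed only through nectaries. No reading is made of these counts or of their median. Over the whole class III and other group, 11 of 24 rose and 5 fell, counts that hold the same contigs. Helianthus38897, matched to a peroxidase of lignifying cells in Arabidopsis (AT5G05340), had 566, 709 and 661 in line 434 nectaries, against 2, 1 and 0 in leaf. Its log2 change was 8.47 (8.23 rescaled), and no test is given, since it passed the minimum mean only through nectaries. A sister contig with the same Arabidopsis match, Helianthus21593, showed the opposite, with 4, 0 and 0 in line 434 nectaries, against 204, 499 and 393 in leaf, and at most 4 in any nectary library; no test is given, since it was tested only because leaf was high. Helianthus22855 (AT1G71695) had 3590, 2726 and 4951 in line 434 nectaries, against 305, 122 and 156 in leaf (4.33 ± 0.46, adjusted p = 9.16e-08; 3.87 rescaled). Helianthus33818 (AT4G37530) had 121, 31 and 86 in line 434 nectaries, against 7, 0 and 0 in leaf. Its log2 change was 5.12 (4.94 rescaled), and 6.13 without leaf replicate 1. It too passed the minimum mean only through nectaries, so no test is given. None of these 4 overlapped between line 434 nectaries and leaf, although line 467 reached down to 271 in Helianthus22855, into the leaf range. Summed markers of xylem, where class III peroxidases couple lignin, were 17 to 34 in line 434 and 33 to 47 in line 441, 862 to 2219 in the other 5 nectary lines and 26 to 33 in leaf, from 2 of 7 genes matched; their part in these values was not tested.

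The single germin-like contig, Helianthus17398, has germin-like protein 10 as its Arabidopsis match and tobacco nectarin 1 as its UniRef match. It had 212, 122 and 177 in line 434 nectaries, against 952, 1059 and 777 in leaf, with no overlap in any line. The log2 change was -2.47 ± 0.25 (adjusted p = 5.44e-08; -2.94 rescaled). By line the values averaged 374 ± 24.6 in ER, 334 ± 134 in 467, 299 ± 43.8 in 456, 215 ± 22.3 in 441, 187 ± 36.1 in 452, 170 ± 45.4 in 434 and 162 ± 34.1 in 412, against 929 ± 142 in leaf (SD, n = 3 each). The mean ± SD intervals of neighbours in that order overlapped, except between 456 and 441 and between 412 and leaf. All 7 lines were lower than leaf, by 1.30 in ER to 2.53 in 412 on the log2 scale (adjusted p of 0.000147 and 3.1e-08).

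The other cupins, a barrel fold with many functions, changed in all 6 contigs. Helianthus13804, matched to AT1G07750, a relative of seed storage cupins, had 3566, 1914 and 1884 in line 434 nectaries, against 23, 14 and 1 in leaf (8.03 ± 0.89, adjusted p = 1.94e-07; 7.64 rescaled); the change was 6.95 without leaf replicate 3 and 8.74 without leaf replicate 1. Helianthus2361, matched to AT4G10300, had 469, 489 and 536 in line 434 nectaries, against 9126, 8290 and 8418 in leaf (-4.11 ± 0.25, adjusted p = 2.43e-11; -4.58 rescaled). Helianthus12153, whose UniRef match is an acireductone dioxygenase of methionine salvage, had 7226, 8788 and 9320 in line 434 nectaries, against 2759, 3240 and 2673 in leaf (1.54 ± 0.15, adjusted p = 4.59e-08; 1.07 rescaled). Over the family 3 of 6 rose and 3 fell, but Helianthus306, lower in line 434, was higher than leaf in ER (1.91, adjusted p = 2.24e-05). Neither off-target germination contig passed.

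**Figure D2:**
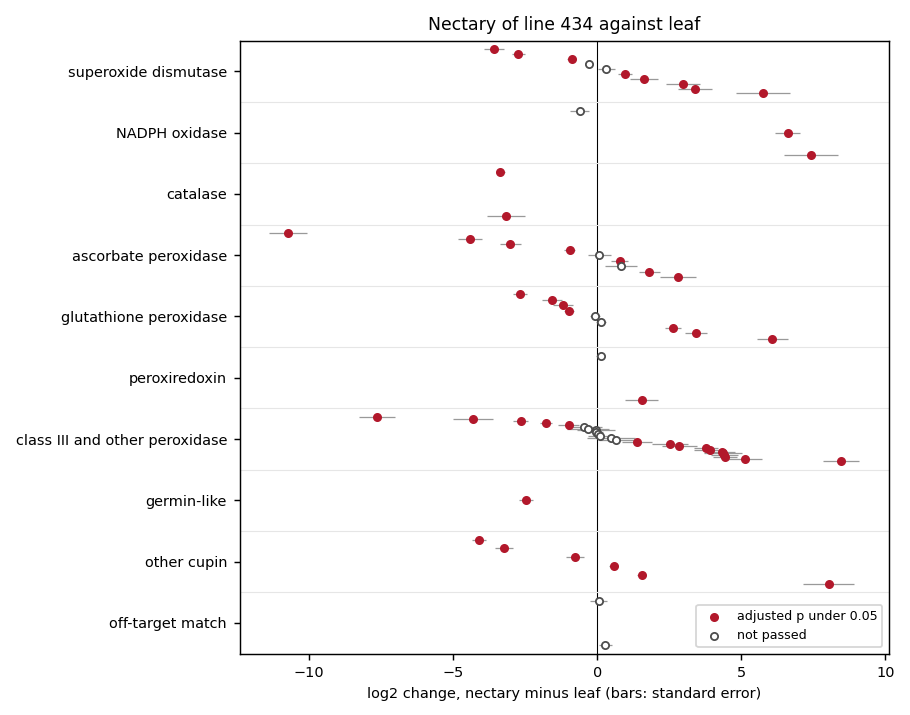
Log2 change of each tested contig in line 434 nectary minus leaf (horizontal axis, bars are standard errors) by family (vertical axis), filled where the adjusted p is under 0.05. Points lie on both sides of 0 in most families. Both catalases and the germin-like contig lie below 0. Of the heme peroxidases, 11 are filled above 0, but most of these passed the minimum mean only through nectaries. No reading is made of that count.

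High-nectar lines differed from low-nectar lines in 28 of 65 tested members, 15 higher and 13 lower in the high lines. Over all 38457 tested contigs 12.3% were higher and 18.9% lower, and the members' shares were 23.1% and 20%, above the background for the higher ones and near it for the lower. The median log2 change was 0.09 over the members and -0.01 over all contigs. The higher members were mainly superoxide dismutases (3 of 10), ascorbate peroxidases (5 of 8) and 2 of 6 cupins, with 1 contig in each of 5 further families, and the lower ones were mainly class III and other peroxidases (8 of 22, with 1 higher). Each class holds 2 lines, so these p-values measure spread between libraries of given lines; with the line as the unit limma called 0 members in either direction (13 higher and 7 lower at an unadjusted p under 0.05), beside 0.79% of all contigs. Summed nectary genes reached 60299 to 189274 in high lines, 29180 to 100221 in medium lines and 39571 to 59000 in low lines. Of these, the SWEET9 contig averaged 135090 and 39817 in 434 and 467, against 16117 and 22580 in 412 and 441. The larger CRC contig averaged 22946 and 22240 in 434 and 467, against 25878 and 23692 in 412 and 441. MYB21 contigs were higher in both high lines, except Helianthus41482. Green-leaf genes summed to 587 to 2049 in high lines, 1364 to 8710 in medium lines and 1701 to 3361 in low lines, with overlap. Pollen and tapetum genes (2 of 5 matched) summed to 1197 to 1728 in high lines, 2040 to 4679 in medium lines and 1331 to 3529 in low lines. The matched genes were ANX1 and ANX2, while AMS, MS1 and MYB80 had no match. An ANX2 contig, Helianthus29498, went the other way, averaging 238 and 455 in 434 and 467, against 21 and 19 in 412 and 441. The part of these markers in the differences was not tested.

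**Figure D3:**
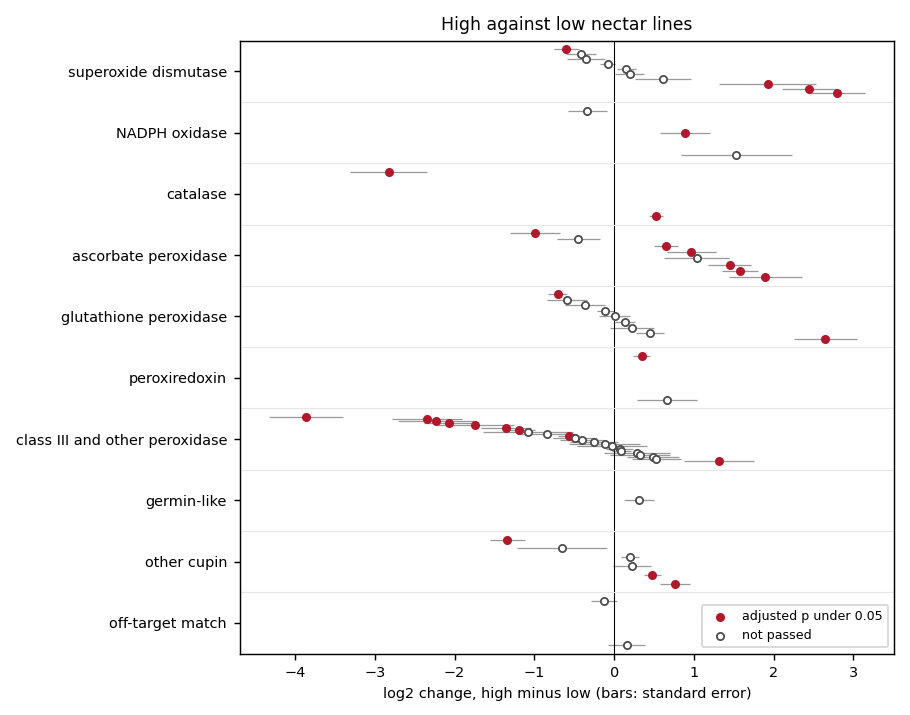
Log2 change of each tested contig in high minus low lines (horizontal axis, bars are standard errors) by family (vertical axis), filled where the adjusted p is under 0.05. In the superoxide dismutase row 3 filled points lie above 1.9, and in the class III row filled points lie mostly below 0.

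Iron superoxide dismutases were higher in the high lines in 3 of 4 contigs, and the remaining one was lower. Helianthus30868 (FSD1) ran from 4598 to 12108, median 10041, in the 6 high-line libraries, against 928 to 2798, median 1166.5, in the 6 low-line libraries. Helianthus30871 (FSD2) ran from 7004 to 28959, median 21647, in high lines, against 1988 to 5437, median 3472, in low lines. The classes did not overlap in either contig. The log2 changes were 2.79 ± 0.35 (adjusted p = 7.66e-06) and 2.44 ± 0.34 (adjusted p = 2.63e-05), and with the line as the unit the adjusted p was 0.0559 and 0.0811.

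Helianthus30868 ran from 1690 to 11643, median 6978.5, in medium lines. It was higher there than in low lines (2.16 ± 0.35, adjusted p = 0.000241), with overlapping libraries. Medium line 452, at 11643, 5438 and 7096, overlapped high line 434, at 10134, 4598 and 9033. Summed by Arabidopsis match, FSD1 did not pass between high and medium lines (limma, log2 change 0.63, adjusted p = 0.151). Helianthus30871 was also higher in medium than in low lines (1.55 ± 0.34, adjusted p = 0.0042; medium 4371 to 20824). ER, outside the classes, had the highest line mean of both, with 27894, 11455 and 20208 for Helianthus30868 and 40739, 17743 and 32035 for Helianthus30871. The third iron contig, Helianthus30870, ran from 475 to 1646, median 579.5, in high lines, against 104 to 358, median 204, in low lines (1.93 ± 0.61, adjusted p = 0.0215), a call lost without replicate 1 of line 434 (1.80, adjusted p = 0.0507) or of line 412 (1.71, adjusted p = 0.0601). The chloroplast nucleoid match Helianthus9705 went the other way, with 118 to 182, median 141.5, in high lines, against 182 to 294, median 208.5, in low lines (-0.60 ± 0.16, adjusted p = 0.00706); the classes touch at 182.

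Chloroplast ascorbate peroxidases rose with the high lines. Helianthus5598, the stromal match, ran from 214 to 483, median 348.5, in high lines, against 65 to 101, median 95, in low lines, without overlap (1.90 ± 0.46, adjusted p = 0.00374). Helianthus5597, a thylakoid match, ran from 673 to 1857, median 1374.5, in high lines, against 257 to 697, median 381.5, in low lines (1.58 ± 0.22, adjusted p = 2.77e-05). Helianthus5596, with the same match, ran from 165 to 486, median 352.5, in high lines, against 73 to 229, median 105, in low lines (1.45 ± 0.26, adjusted p = 0.000381). The last pair overlapped between classes, and line 467 lay below 434 in both. Again ER was as high as any classed line, with 700, 457 and 566 for Helianthus5598 and 2357, 1740 and 2177 for Helianthus5597. The peroxisomal Helianthus37165 ran from 2681 to 3404, median 3019, in high lines, against 1561 to 2428, median 1852, in low lines (0.65 ± 0.15, adjusted p = 0.00271), and the cytosolic Helianthus20355 from 5515 to 10391, median 6896, in high lines, against 3033 to 4225, median 3928, in low lines (0.96 ± 0.31, adjusted p = 0.023; 0.89 and adjusted p = 0.0564 without replicate 2 of line 434). Neither overlapped. Helianthus1052 (APX6) was lower, at 9 to 30 in high lines and 16 to 51 in low lines (-0.99 ± 0.31, adjusted p = 0.0208), a call lost without replicate 3 of 434, 467 or 441 or replicate 2 of 412 (adjusted p = 0.0516, 0.065, 0.0606 and 0.0657).

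The GPX2 match Helianthus41808 ran from 4293 to 22198, median 13307.5, in high lines, against 940 to 4030, median 1588, in low lines, without overlap (2.65 ± 0.40, adjusted p = 5.47e-05). Line 434 carried most of this: its libraries lay at 19773 to 22198, against 4293 to 6842 in 467, and in the low lines 412 lay at 2021 to 4030 and 441 at 940 to 1155. It was the single glutathione peroxidase of 9 that was higher, and Helianthus19687, a GPX6 match, was the single one lower (-0.71 ± 0.12, adjusted p = 0.000154), although line 441, at 397 to 545, was as low as the high lines, at 388 to 545. The peroxiredoxin Helianthus4493 ran from 2396 to 3196 in high lines, against 2040 to 2270 in low lines (0.35 ± 0.11, adjusted p = 0.0219), a call lost without replicate 2 of line 434 (adjusted p = 0.0531) and after rescaling (adjusted p = 0.0631).

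The RBOHC match Helianthus41177 ran from 2080 to 2667, median 2326.5, in high lines, against 1101 to 1681, median 1225.5, in low lines, without overlap. Its change, 0.89 ± 0.32, passed narrowly (adjusted p = 0.0401) and did not pass on leaving out any 1 of 11 of the 12 high- and low-line libraries, replicate 2 of line 412 being the exception (adjusted p = 0.0529 to 0.0892). Helianthus41178, the RBOHD match listed at 0 in leaf, ran from 134 to 213, median 192.5, in high lines, against 29 to 109, median 59.5, in low lines. That did not pass (1.53 ± 0.69, adjusted p = 0.106) although the classes did not overlap; without replicate 3 of line 452, listed at 0 and part of the shared spread, the adjusted p was 5.82e-05. ER, at 115 to 173 for Helianthus41178 and 1724 to 2382 for Helianthus41177, sat with the high lines or just under them.

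**Figure D4:**
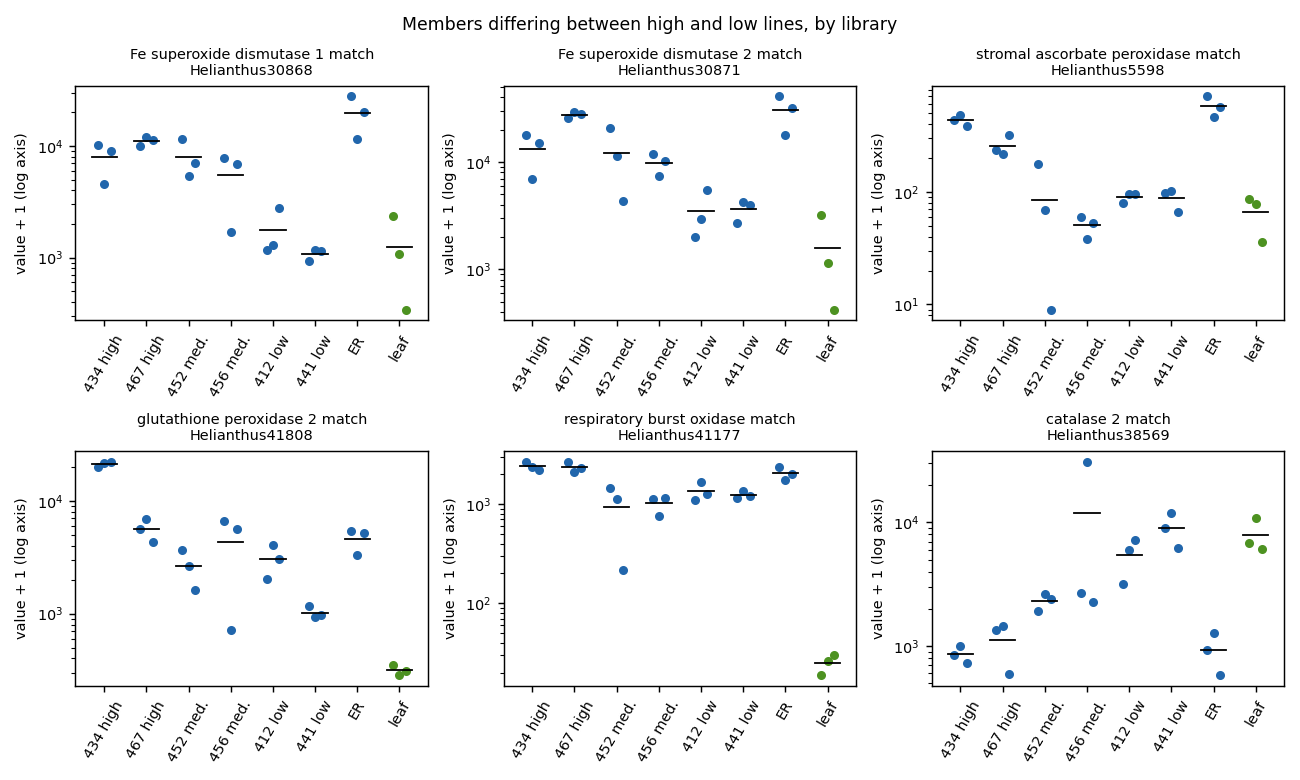
Values + 1 on a log axis (vertical) in each library (points) of the 7 nectary lines and leaf (horizontal axis), with black bars at group means, for the iron superoxide dismutases Helianthus30868 and Helianthus30871, Helianthus5598, Helianthus41808, Helianthus41177 and Helianthus38569. In the first 5 the lines 434 and 467 lie above 412 and 441; in Helianthus38569 they lie below, and replicate 2 of line 456 stands at 30982.

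Catalase contigs parted. Helianthus38569 ran from 593 to 1446, median 918.5, in high lines, against 3179 to 11810, median 6698, in low lines, without overlap (-2.83 ± 0.48, adjusted p = 0.000192). Helianthus20257 ran from 3668 to 5965, median 4729.5, in high lines, against 2936 to 3544, median 3312.5, in low lines, also without overlap but higher (0.52 ± 0.09, adjusted p = 0.000242). ER resembled the high lines in Helianthus38569, with 926, 1266 and 582. The low lines overlapped leaf in this contig, with 3179, 5965 and 7183 in 412 and 9064, 11810 and 6213 in 441, against 6766, 10804 and 6116 in leaf, and neither low line differed from leaf. Helianthus38569 also had a value of 30982 in replicate 2 of line 456, the library with the highest green-leaf sum, against 2695 and 2253 in its replicates. Helianthus20257, far higher than any nectary in leaf, was at 4253 in that library, against 3634 and 3307 in its replicates.

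Class III and other peroxidases, the largest family, held the most decreases in high lines, 8 of 22 tested, beside 18.9% of all contigs. Among the 17 heme peroxidases tested 5 were lower, 1 higher and 11 not passed, with a median log2 change of -0.40. Some of the 5 differed within a class. Helianthus6509 had 434 to 563 in low line 412 and is listed at 0 in low line 441. Helianthus22855 had 2194 to 4444 in low lines, against 2726 to 4951 in high line 434 and 271 to 1192 in high line 467. Helianthus33818 ran from 31 to 121, median 78, in high lines, against 254 to 379, median 278.5, in low lines (-2.07 ± 0.30, adjusted p = 4.08e-05). Helianthus33819 (AT5G14130) ran from 11 to 54, median 28.5, in high lines, against 71 to 151, median 125.5, in low lines (-2.23 ± 0.48, adjusted p = 0.00148). The classes did not overlap in either, and ER lay with the high lines or below them, at 27 to 54 and 6 to 27.

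Helianthus25374, related to vanadium haloperoxidases, ran from 7 to 17, median 11, in high lines, against 33 to 166, median 43.5, in low lines (-2.35 ± 0.44, adjusted p = 0.000533). The regulator match Helianthus13816 ran from 75 to 107, median 94.5, in high lines, against 114 to 172, median 141.5, in low lines (-0.57 ± 0.13, adjusted p = 0.0021). These did not overlap either. The single higher heme peroxidase was Helianthus38897, at 210 to 709, median 577, in high lines, against 46 to 480, median 248.5, in low lines (1.31 ± 0.44, adjusted p = 0.0296). Its call was lost on leaving out replicate 2 or 3 of line 434, or replicate 1 or 2 of line 467, 412 or 441 (adjusted p = 0.054 to 0.0867). The germin-like contig did not differ detectably, at 122 to 482, median 216.5, in high lines, against 126 to 233, median 192, in low lines (0.31 ± 0.18, adjusted p = 0.216). Among cupins Helianthus2361 ran from 445 to 536, median 478, in high lines, against 222 to 372, median 283, in low lines (0.76 ± 0.19, adjusted p = 0.00482), without overlap.

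High lines differed from medium lines in 33 of 65 members, 17 higher and 16 lower, while 23.8% of all contigs were higher and 20% lower; the members' shares, 26.2% and 24.6%, lay near that background. Ascorbate peroxidases (4 of 8 higher, none lower) and class III and other peroxidases (11 of 22 lower, 1 higher) again went opposite ways. With the line as the unit 2 members passed as higher and none as lower (10 and 10 at an unadjusted p under 0.05; 1.44% of all contigs passed). These were Helianthus5598 (adjusted p = 0.0348), at 214 to 483, median 348.5, in high lines, against 8 to 175, median 55.5, in medium lines, and Helianthus41178 (adjusted p = 0.0483), at 134 to 213, median 192.5, in high lines, against 0 to 60, median 33.5, in medium lines. Over libraries their changes were 2.76 ± 0.46 and 3.08 ± 0.69, and 2.16 and 2.12 without replicate 3 of line 452. Neither overlapped. The fit with the line as the unit was not repeated without replicate 3 of line 452, which held the 8 and the 0. Helianthus41177 was also higher, at 2080 to 2667 in high lines, against 215 to 1433 in medium lines (1.498 ± 0.32, adjusted p = 0.00136). The 215 was replicate 3 of line 452, and the other medium-line libraries lay at 764 to 1433. Helianthus33818 was lower, at 31 to 121 in high lines, against 129 to 489, median 396, in medium lines (-2.28 ± 0.30, adjusted p = 1.8e-05), and Helianthus25374 at 7 to 17 in high lines, against 27 to 161, median 104, in medium lines (-2.91 ± 0.44, adjusted p = 7.79e-05). Helianthus38569 was lower, at 593 to 1446 in high lines, against 1927 to 30982, median 2511, in medium lines (-1.94 ± 0.48, adjusted p = 0.00429; -1.33 without replicate 2 of line 456).

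Medium lines differed least from low lines: 7 of 65 members were higher and 2 lower, beside 5.68% and 8.99% of all contigs (10.8% and 3.08% of the members). With the line as the unit limma called 0 members (5 higher and 6 lower at an unadjusted p under 0.05), beside 0.0104% of all contigs. The higher contigs were the pair of iron superoxide dismutases above, the catalase Helianthus20257 (0.38 ± 0.09, adjusted p = 0.00712; 3307 to 5247 in medium lines, 2936 to 3544 in low lines) and 4 heme peroxidases. The lower ones, named after their values were seen, were the GPX8 match Helianthus8370 (-1.04 ± 0.25, adjusted p = 0.00795) and the pirin-like cupin Helianthus306 (-0.89 ± 0.22, adjusted p = 0.0102). The counts depended on the odd libraries: without replicate 3 of 452 and replicate 2 of 456 there were 14 higher and 4 lower. Among the gains was Helianthus41808, at 718 to 6569 in medium lines, against 940 to 4030 in low lines, whose change was 0.66 ± 0.40 (adjusted p = 0.271) with all libraries and 1.33 (adjusted p = 6.45e-05) without the pair. Helianthus38569 also passed, as lower, at -1.51 (adjusted p = 0.000937), against -0.89 ± 0.48 (adjusted p = 0.225) with all libraries.

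The lines were also compared with each other without regard to class. An F test over the 7 nectary lines, which takes in differences between and within classes and from ER, called 39 of 65 members (60%), against 50.6% of all contigs. It called 7 of 10 superoxide dismutases, 13 of 22 class III and other peroxidases and 6 of 9 glutathione peroxidases. The widest range belonged to Helianthus6509, matched to peroxidase 59, with 566, 598 and 698 in line 456, 563, 464 and 434 in line 412 and 32, 107 and 147 in line 452. It had 2, 0 and 0 in line 434, 1, 0 and 1 in line 467 and 3, 0 and 7 in ER, and is listed at 0 in all 3 libraries of line 441, against 0, 0 and 5 in leaf. It thus was high in 1 low line and was listed at 0 in the other (adjusted p of the F test = 4.64e-10), so its class contrasts describe neither low line. Line 434 did not differ from leaf in it (adjusted p = 0.711), while 3 lines were higher than leaf. It passed the minimum mean only through nectaries, so no reading is made of those 3. Its sister contig Helianthus6508, with the same matches, never exceeded 3 in any library and was tested nowhere.

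Values at or near 0 in some lines were also seen in Helianthus27877, matched to peroxidase 26 and chosen after its values were seen. It lay at 44 to 82 in line 434, 27 to 95 in 452, 54 to 65 in 456, 58 to 78 in 412 and 34 to 68 in ER, against 14, 27 and 30 in leaf. It had 4, 0 and 0 in line 467 and is listed at 0 in all 3 libraries of 441 (adjusted p of the F test = 1.25e-08). The low values thus fell in 1 high and 1 low line. Helianthus30870, the minor FSD2 match, was low in line 452 alone, with 39, 11 and 0, against 704, 303 and 568 in the other medium line, 456 (adjusted p of the F test = 4.44e-05), while the major match Helianthus30871 stayed at 4371 to 20824 in 452.

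The peroxiredoxin Helianthus4494 was low in ER, with 133, 45 and 39, against 231 to 2065 in the 18 libraries of the classed lines, which did not overlap it (adjusted p of the F test = 0.000126). In leaf it had 92, 442 and 314, and its direction against leaf turned with the line: higher in 3 lines, lower in ER (-1.91, adjusted p = 0.00783). Helianthus30063 (AT5G39580) was highest in line 456, with 180, 315 and 474, and lowest in 434, with 21, 15 and 12, and in ER, with 23, 21 and 10 (adjusted p of the F test = 3.89e-05). Helianthus22855 separated lines of 1 class: 3590, 2726 and 4951 in 434, against 586, 271 and 1192 in 467 among high lines, and 10612, 4992 and 4411 in 452, against 897, 1359 and 1122 in 456 among medium lines (adjusted p of the F test = 3.93e-05). It was higher than leaf in all 7 lines.

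**Figure D5:**
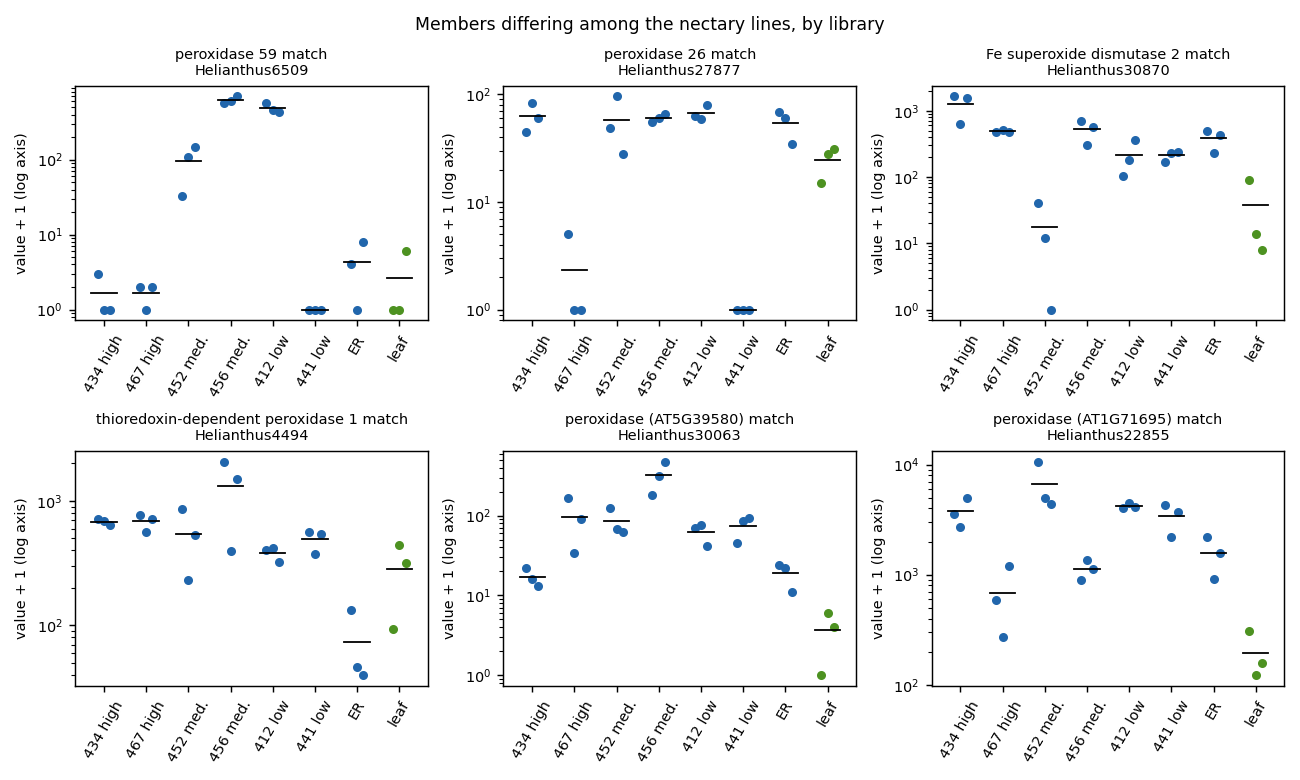
Values + 1 on a log axis (vertical) in each library (points) of the 7 nectary lines and leaf (horizontal axis), with black bars at group means, for 6 contigs that differed among lines. Helianthus6509 stands at 32 to 698 in 452, 456 and 412 and at 7 or less elsewhere; Helianthus27877 falls to 4 or less in 467 and 441, Helianthus30870 to 39 or less in 452, and Helianthus4494 to 133 or less in ER.

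A companion list of 58 contigs took in enzymes that regenerate ascorbate and glutathione, and further families, some of them known from tobacco nectar proteins. It held ascorbate oxidase, GDP-mannose epimerase, and monodehydroascorbate, dehydroascorbate, glutathione and thioredoxin reductases. It also held carbonic anhydrases, berberine-bridge-like oxidases, copper amine oxidases and glucose-methanol-choline oxidoreductases. In the nectary of line 434 against leaf 18 of 56 were higher and 23 lower, beside 39.6% and 22% of all contigs. Only 49 of the 56 reached the minimum mean of 10 in the nectary libraries. Among the higher ones Helianthus12148, below, averaged under 10 in leaf, so no reading is made of these counts. In high against low lines 17 of 49 were higher and 5 lower, beside the 12.3% and 18.9% of all contigs. In that comparison the ascorbate and glutathione group gave 6 higher, none lower and 11 not passed. Besides the regenerating enzymes this group holds the ascorbate oxidase and GDP-mannose epimerase contigs. The clearest was Helianthus1509, matched to monodehydroascorbate reductase 1, which restores ascorbate after ascorbate peroxidase has used it. It ran from 9203 to 12286, median 10862.5, in high lines, against 3511 to 5146, median 4585.5, in low lines (1.26 ± 0.13, adjusted p = 7.47e-07), with medium lines at 3628 to 6287 and ER at 10162 to 12469. High and low lines did not overlap. Ascorbate oxidase Helianthus25394, a wall enzyme that oxidises ascorbate, had 8643, 7159 and 8336 in line 434 nectaries, against 22, 15 and 15 in leaf (8.80 ± 0.50, adjusted p = 7.32e-12). The berberine-bridge-like oxidase Helianthus12148, of the family of tobacco nectarin 5, had 3648, 3126 and 3986 in line 434 nectaries, against 2, 5 and 8 in leaf. It passed the minimum mean only through nectaries, so no test is given.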

How the data were processed

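RNA of 21 nectary and 3 leaf libraries was sequenced as 50-base paired reads in 2 lanes, per the labels' protocols. The authors deposited, per the file headers, values scaled to a common upper quartile and rounded to whole numbers, treated here as a normalized score and not as counts; the header of ER replicate 3 does not name the normalization. Aligner and assembly: not given in the sources used here. Reads per library were estimated from the steps between small values (error in simulated libraries at most 0.0529%). The table's 16 group means and SDs were not used.

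Values were taken as log2(value + 1), which understates changes of low contigs. Contigs averaging 10 or more in the fitted libraries were tested with limma 3.58.1 in R 4.3.3, with 1 mean per group, moderated variances with a trend and Benjamini-Hochberg adjustment over all contigs. Line 434 nectary against leaf used all 24 libraries, and class comparisons and the F test over lines the 21 nectary libraries, since leaf widens the spread. The filter left 68 members against leaf and 65 among nectaries. Helianthus6508 was in neither, and Helianthus3537, Helianthus8440 and Helianthus21593 passed only through leaf. Members averaging under 10 in leaf, such as Helianthus38897 and Helianthus41178, passed only through nectaries. Of the 69 members, 36 share their Arabidopsis match with another member, so they are not independent and reads may be divided between copies. The procedure was tested on simulated data. The members and lists were chosen with earlier results of these data known. Contigs were named if they had the 2 highest nectary means or the highest leaf mean of a family, the 4 largest non-overlapping increases or decreases per comparison (higher mean at least 100), or the 6 largest ranges among lines. Helianthus306, Helianthus5596, Helianthus5597, Helianthus8370, Helianthus9705, Helianthus19612, Helianthus19687, Helianthus27877 and the companion contigs were named after their values were seen. Tables and figures were made with Python 3.11.15, numpy 2.4.6, pandas 2.3.3 and matplotlib 3.10.9.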

Additional observations from a re-analysis of the deposited data

Results flagged for a closer look

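Each class of 6 libraries was searched for a single library far from the other 5, by Dixon's gap ratio, in 36 named contigs and 3 classes. The test marked 12 of 108 groups; chance alone marks about 1 in 20. Replicate 3 of line 452, the library with the most contigs at 0, was lowest of the medium lines in 3 contigs: 215 for the oxidase Helianthus41177 (764 to 1433 in the others), 0 for Helianthus41178 (24 to 60) and 111 for the germination match Helianthus41157 (204 to 250). Replicate 2 of line 456, the library with the highest green-leaf sum, was highest of the medium lines in the catalase Helianthus38569 (30982, others 1927 to 2695) and the peroxidase Helianthus32034 (4144, others 861 to 1507).

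The FSD1 match Helianthus30868 was low in replicate 2 of line 434 (4598, other high-line libraries 9033 to 12108) and high in replicate 3 of line 412 (2798, other low-line libraries 928 to 1298). In low lines the peroxidase Helianthus22855 was low in replicate 2 of 441 (2194, others 3709 to 4444), Helianthus33818 high in replicate 1 of 441 (379, others 254 to 293) and the GPX6 match Helianthus41595 high in replicate 1 of 412 (4642, others 1591 to 2106). Values near the detection limit made up the last pair: 7 for Helianthus3537 in replicate 1 of 441 (others 1 to 2) and 1 for Helianthus21593 in replicate 3 of 456 (others 0).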

How the results depend on the processing

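Leaving out 1 library gave 25 to 29 members higher and 20 to 22 lower for nectary against leaf, 12 to 19 and 12 to 15 for high against low, 6 to 11 and 2 to 8 for medium against low, 14 to 21 and 13 to 18 for high against medium, and 37 to 49 in the F test. In medium against low, the higher count was 11 without replicate 2 of 456, and the lower count was 8 without replicate 1 of 452, 4 without its replicate 2 and 4 without replicate 2 of 456. Leaving out replicate 3 of 452 with replicate 2 of 456, chosen after seeing the data, gave 14 and 4 there. Summing contigs by Arabidopsis match gave 17 of 49 genes higher in nectary than leaf, where fewer features were tested. With the line as the unit there were 0 and 0 calls for high against low, 0 and 0 for medium against low and 2 and 0 for high against medium. A minimum mean of 50 left 1 member lower in medium than low lines. Among all contigs, high against low gave 18315 calls without the odd pair (11983 with it), 304 by line and 3792 of 9773 summed genes; medium against low gave 3421 of 24237 at a mean of 50 (5642 at 10), 4 by line and 1088 summed; high against medium gave 554 by line and 4289 summed (16829 as fitted). Against leaf, directions turned with ER for Helianthus32034 (0.11, adjusted p = 0.801), Helianthus4494 (-1.91, adjusted p = 0.00783), Helianthus306 (1.91, adjusted p = 2.24e-05) and Helianthus19612 (-0.56, adjusted p = 0.00307). They turned with the mean of 7 lines for Helianthus4493 (-0.26, adjusted p = 0.0428), Helianthus306 (0.68, adjusted p = 0.0147), Helianthus5597 (-0.63, adjusted p = 0.0178), Helianthus27877 (-0.26, adjusted p = 0.568) and Helianthus6509 (3.05). Helianthus6509 passed the minimum mean only through nectaries, so no test is given. The cause of these turns was not tested. Replicate numbers do not pair the samples: libraries with the same number had deviations correlated at -0.29 to 0.26, over 0.1 in 10 of 84 pairs. The replicate block gave 28 and 22, 15 and 13, 7 and 2, and 17 and 17 calls, and 41 in the F test. Over all altered settings, 3140 of 3339 values of named contigs stayed on the same side of the threshold without a turn of direction. A turn was counted only where the main or the altered fit passed. At 8450000 to 16090000 reads, values of a few units rest on a few reads (0.678 to 1.501 units each).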
